A study of Mus musculus with 40 samples.

Results

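The 10 genes described here are the insulin-like growth factor (IGF) axis of the fetal mouse liver: the ligands Igf1 and Igf2, the untranslated RNA H19 that lies beside Igf2, the receptors Igf1r and Igf2r, the binding proteins Igfbp1, Igfbp2, Igfbp3 and Igfbp4, and Igfals, the acid-labile subunit. They were chosen by name, as the rows of the gene table that carry these symbols, and are 10 of the 20593 genes in it. Polyadenylated RNA was read from 40 livers of C57BL/6 fetuses at gestational day 18.5, with 1 library per sample. The control diet of the dams (CD) drew 10% of its calories from fat and the western diet (WD) 45%, and both were fed from 13 weeks before breeding through pregnancy; the submitters describe the western diet dams as a mouse model of gestational diabetes. Each diet held either 2 mg/kg folic acid or the excess dose of 10 mg/kg, and the groups with the higher dose carry the letter F (CDF, WDF). Male and female fetuses of the 4 diets give 8 groups, which share the strain, the age and the tissue. Each group had 5 libraries, of which 2 in all were set aside, so that CD females and CDF females have 4 each. Dams and litters are not named in the labels, fetuses of a group may therefore share a mother, and the p-values measure only the spread between these samples.

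IGF1 and IGF2 are secreted peptides that drive growth through the IGF1 receptor, a tyrosine kinase close to the insulin receptor. IGF2 is the main growth factor of fetal life, while liver IGF1 rises after birth when the liver comes under growth hormone. The binding proteins hold the ligands in the circulation and at cell surfaces, and the acid-labile subunit joins a ligand and IGFBP3 or IGFBP5 in a long-lived complex. Igf2 is transcribed from the paternal copy and H19 from the maternal copy of a shared imprinted domain, and Igf2r, which clears IGF2 into lysosomes, is transcribed from the maternal copy. Igfbp1 is a classical insulin-repressed and fasting-induced gene of hepatocytes, and Igfbp2 is a binding protein abundant in fetal liver.

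In the annotation of the mouse build GRCm38, H19 lies on the minus strand at chr7:142575529-142578143 and Igf2 on the same strand at chr7:142650766-142666816, with 72.6 kb between them. Igfbp1, at chr11:7197782-7202546 on the plus strand, and Igfbp3, at chr11:7206086-7213923 on the minus strand, point towards each other across 3.5 kb. Igfbp2 lies at chr1:72824503-72852474 and Igfbp4 at chr11:99041244-99054392, both on the plus strand. Igf1r (chr7:67952827-68233668) and Igf1 (chr10:87858265-87937042) are on the plus strand, Igf2r (chr17:12682406-12769664) is on the minus strand, and Igfals (chr17:24865997-24882010) is on the plus strand. H19 is annotated as a long intergenic noncoding RNA, and the other 9 genes are protein coding. Exons of Igf2 overlap those of the antisense gene Igf2os, and whether reads were assigned by strand is not given in the sources used here; Igf2os had 71.7 to 217 normalized counts in the 38 libraries, against 29159.7 to 75125 for Igf2.

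H19 is also the host of a microRNA pair, miR-675, whose precursor lies within its first exon in known transcripts. The mature forms were not measured, since the libraries hold polyadenylated RNA, and are shown because they are the known small RNA product of the most abundant gene described here. Both are from RefSeq on GRCm38.p6, at chr7:142577112-142577133 and chr7:142577078-142577099 on the minus strand, written 5′ to 3′ with the seed (bases 2 to 8) in capitals.
miR-675-5p: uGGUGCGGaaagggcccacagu
miR-675-3p: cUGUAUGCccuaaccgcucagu

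The sequence upstream of the start is shown for Igfbp1, Igfbp2 and Igf2, the members on which the comparisons turn. For each it is the 250 bases before a RefSeq transcript start on GRCm38.p6, 5′ to 3′ on the strand of the gene. In Igfbp1 (chr11:7197537-7197786, plus strand) the capitals mark CAAAACA and the reverse complement of CAAAATA, the letters of the paired insulin response element to which FOXO factors are known to bind. In Igfbp2 (chr1:72824230-72824479, plus strand) and Igf2 (chr7:142657497-142657746, minus strand, its most downstream start) they mark GGGCGG, the core of a binding site of SP1-like factors.
Igfbp1: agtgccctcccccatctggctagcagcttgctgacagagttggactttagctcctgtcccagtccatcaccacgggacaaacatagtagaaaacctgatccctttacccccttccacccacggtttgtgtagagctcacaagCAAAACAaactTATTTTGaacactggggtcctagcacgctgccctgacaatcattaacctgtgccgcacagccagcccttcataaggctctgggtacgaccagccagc
Igfbp2: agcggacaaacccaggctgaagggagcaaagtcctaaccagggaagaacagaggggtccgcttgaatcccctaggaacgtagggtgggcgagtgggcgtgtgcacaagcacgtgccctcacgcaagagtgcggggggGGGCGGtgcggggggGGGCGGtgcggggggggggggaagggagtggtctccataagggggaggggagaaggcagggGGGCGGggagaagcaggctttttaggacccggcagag
Igf2: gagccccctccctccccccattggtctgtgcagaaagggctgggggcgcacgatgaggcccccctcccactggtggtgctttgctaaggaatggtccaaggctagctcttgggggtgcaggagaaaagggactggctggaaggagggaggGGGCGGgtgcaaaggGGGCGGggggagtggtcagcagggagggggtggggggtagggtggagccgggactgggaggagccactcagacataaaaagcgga

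CAAAACA began 108 bases and TATTTTG 97 bases before the Igfbp1 start. Of 32851 windows of 300 bases around RefSeq transcript starts (250 before and 50 after), 6.28% held CAAAACA on either strand, 4.36% held CAAAATA and 0.472% held both. The Igfbp1 window was the only window with either among the 15 windows that 9 of the members had in the table. GGGCGG, on either strand, occurred 3 times in the Igfbp2 window shown and 2 times in the Igf2 window shown, and was in 35.7% of all windows. The windows shown had the most matches of their gene. The other Igfbp2 window had 0, and the other Igf2 windows had 0, 0 and 1. These matches are a description of the letters, and no binding was measured.

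In units of 1000000 normalized counts, the 38 libraries held 15.002 to 27.817, with a median of 17.006. In all 38, Alb, the hepatocyte albumin gene, had 641907 to 1496610 normalized counts. In CD female replicate 4 and CDF female replicate 5 it had 7708 and 5278, while Sftpc, a surfactant gene of the lung, had 101239 and 67014 against a median of 4.05 in the others. These 2 libraries go against their tissue label and were left out of all values below unless stated. Among the 38, Sftpc was above 1000 in 6 libraries, 1 of which is WDF male replicate 2. In the 2 libraries left out, 7 of the 10 members (Igf2, H19, Igfbp1, Igfbp2, Igfbp3, Igfbp4 and Igfals) were below the lowest of the 38, Igf1r and Igf2r were above the highest, and Igf1 was within the range.

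**Figure D1:**
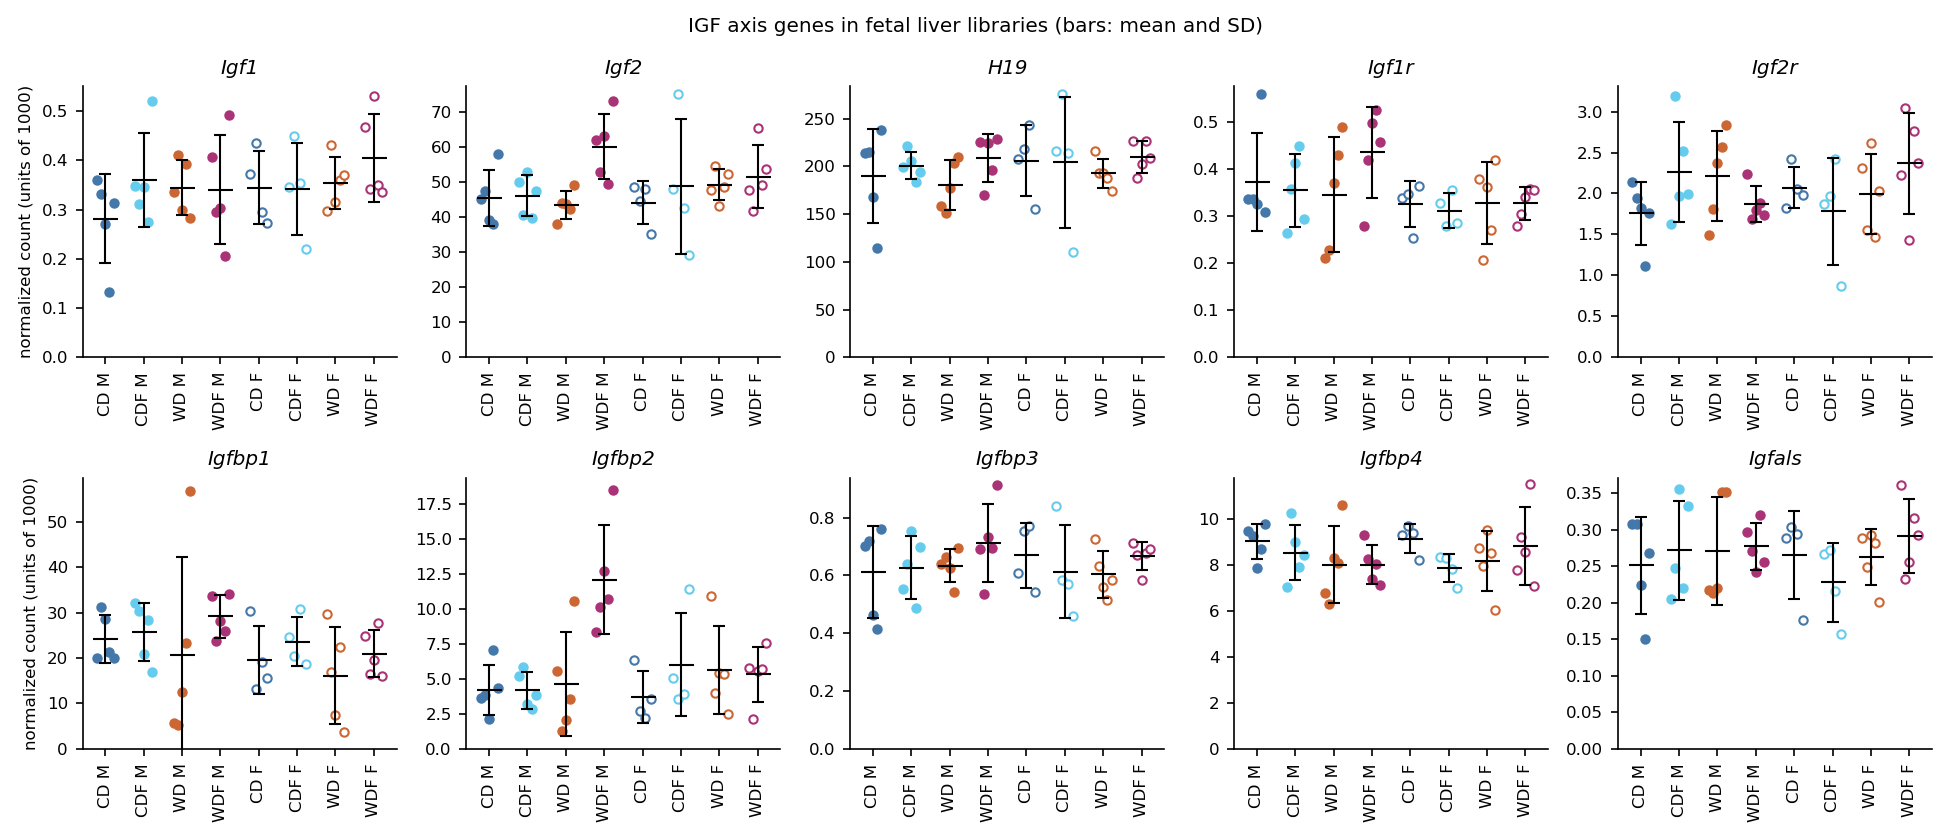
Normalized count, in units of 1000, of each of the 10 genes in the 38 libraries, by maternal diet and fetal sex (M filled, F open; points are libraries, the horizontal mark is the group mean and the bar its SD). For Igf2 the 5 WDF males, 49358 to 73209, lie above the 5 WD males, 38087 to 49113, and for Igfbp2 the WDF males have the highest group mean.

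All 10 genes were detected in each of the 38 libraries. Per kilobase of exon, H19 had the highest median level over the 38 libraries (83172 normalized counts per kb), followed by Igfbp1 (14398), Igf2 (8371), Igfbp2 (2788) and Igfbp4 (1886). The receptor Igf2r (212) and Igfbp3 (209) lay at nearly the same level per kb. Igfals (84.9), Igf1 (34.7) and Igf1r (20.5) were the lowest, so that on this per-length scale the fetal ligand Igf2 stood far above Igf1. The genes differed in how much they varied between libraries. Igfbp1 ranged 14.9-fold over the 38 libraries, from 3827 to 56847 normalized counts, and Igfbp2 ranged 14.4-fold, from 1287 to 18522. Their coefficients of variation were 43.6% and 63.2%, against 13.9% to 24.4% for the other 8 genes. When the groups were ordered by mean for each gene, all 70 pairs of neighbouring groups overlapped in range, and 69 differed by less than the larger of their SDs. The exception was Igfbp2, for which the mean of WDF males exceeded that of CDF females, the next group, by more than the larger SD. Ordering by mean puts the closest groups side by side, so this count does not tell whether groups further apart overlap. For Igf2, WDF males and WD males, first and last in the order, did not.

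**Figure D2:**
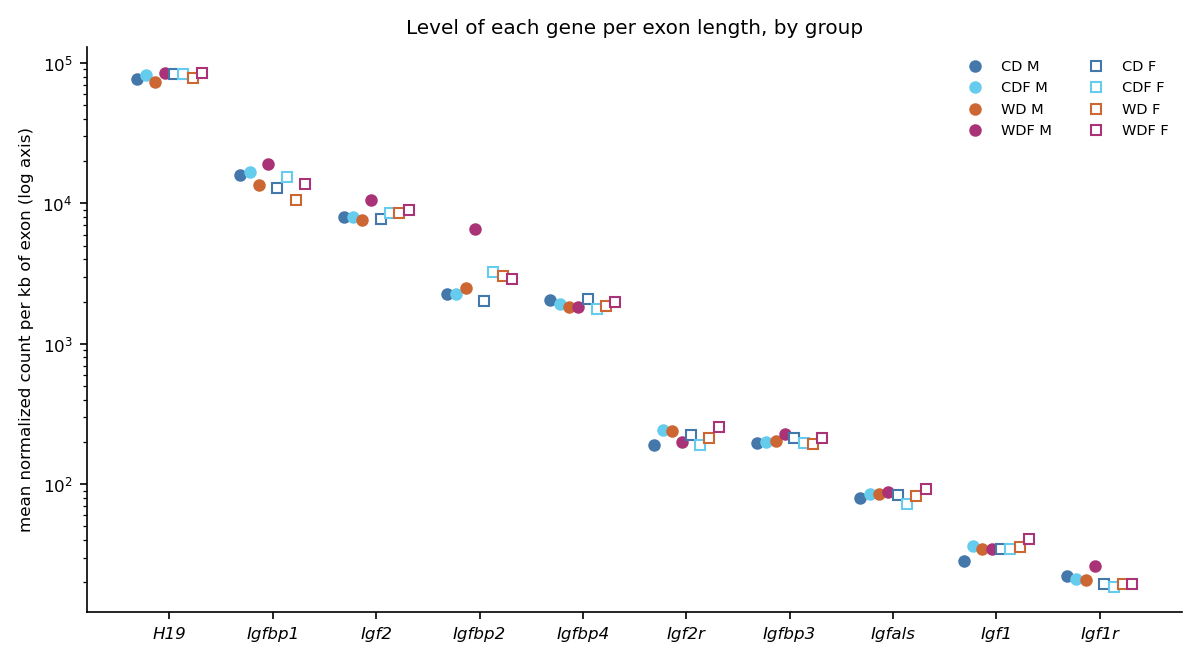
Group mean of each gene as normalized count per kilobase of exon, on a log axis, in 8 groups (M filled circles, F open squares). The genes keep nearly the same order in all groups, and the group means of Igfbp2 spread the most, with WDF males at the top.

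Igf2, the fetal ligand, had its highest group mean in WDF males. Its normalized counts in WDF males were 62032, 52944, 63080.1, 49358 and 73209, and in WD males 38087, 44139, 43798, 42352 and 49113. Every WDF male was above every WD male, although the lowest WDF male and the highest WD male lay close together. The means were 60125 ± 9368 and 43498 ± 3957 (SD, n = 5 each), a log2 difference of 0.46 (SE 0.169, 1.37-fold). The unadjusted limma p was 0.0104, and adjusted p = 0.480 over all genes tested. A two-sided exact permutation test of the 5 against 5 libraries gave p = 0.00794, the smallest that it can give; it was run only for differences between 2 groups whose limma p was under 0.05, so it is no independent evidence. In the authors' deposited table for the same groups, Igf2 had a log2 fold change of 0.393 (SE 0.144) and an adjusted p of 0.0383, and so was past 0.05 there; that table called 203 of 13715 genes, or 1.48%. When the 2 libraries set aside were included, the difference stayed 0.46, since neither belongs to these groups, and its limma p was 0.306. Among CDF males, Igf2 had 49923, 40716, 52986, 39835 and 47348 normalized counts, which overlap the WDF males. The difference of WDF from CDF males was 0.38 on the log2 scale (SE 0.169, exact permutation p = 0.0397, unadjusted limma p of 0.0325, adjusted p = 0.703), and its unadjusted p was above 0.05 when any of CDF male replicates 2 and 4 or WDF male replicates 1, 3 and 5 was left out. CD males averaged 45555 ± 7983 normalized counts, close to WD and CDF males. In females the group means ran from 44095 ± 6177 (CD, n = 4) through 48792 ± 19287 (CDF, n = 4) and 49304 ± 4448 (WD, n = 5) to 51574 ± 8939 (WDF, n = 5). The higher folic acid dose in western diet females went with a log2 difference in Igf2 of 0.05, with a 95% interval of -0.29 to 0.40.

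H19, the noncoding neighbour of Igf2, had group means between 180225 ± 25959 normalized counts in WD males and 210036 ± 16799.9 in WDF females (n = 5 each). WDF males had a median of 224529 (170110.0 to 228109) and WD males a median of 177799 (151547 to 209431), and the 2 groups overlapped. The interval of their log2 difference, -0.15 to 0.59, includes both no difference and the size seen for Igf2. The ratio of H19 to Igf2 normalized counts averaged 3.4997 ± 0.345 in WDF males and 4.15 ± 0.492 in WD males, against group means of 3.94 to 4.66 in the other 6 groups. The ratio overlapped between WDF males (3.12 to 3.97) and WD males (3.43 to 4.81); it was looked at after the values of both genes were known and carries no test. Igf1, the growth hormone dependent ligand, had group means from 282 ± 89.8 normalized counts in CD males to 405 ± 89.0 in WDF females. No comparison of Igf1 or H19 reached an unadjusted p of 0.05.

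Igf1r, the signalling receptor, averaged 436 ± 97.1 normalized counts in WDF males, the highest group mean, and 313 ± 36.5 in CDF females, the lowest. WDF males had 279 to 526 and WD males 213 to 490, and the groups overlapped almost fully. Igf2r, the clearance receptor, ran from 1758 ± 388 in CD males to 2367 ± 614 in WDF females. Its values were 1689.7 to 2244 in WDF males and 1498 to 2831 in WD males. Neither receptor reached an unadjusted p of 0.05 in any of the 14 comparisons.

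Igfbp2, a binding protein with a preference for IGF2, showed the largest difference of the 10 genes. Its normalized counts in WDF males were 8359, 10163, 12706, 10741 and 18522. In WD males they were 5555, 1287, 2039, 3582 and 10577, so 4 of the 5 lay below every WDF male and replicate 5 lay inside their range. The means were 12098 ± 3912 and 4608 ± 3715 (SD, n = 5 each), a log2 difference of 1.72 (SE 0.436, 3.30-fold). The exact permutation test gave p = 0.0238, with an unadjusted limma p of 0.000371 and adjusted p = 0.336. CDF males had 5228, 5823, 3208, 2820.0 and 3819, all below every WDF male. The log2 difference of WDF from CDF males was 1.53 (SE 0.436, 2.90-fold, exact permutation p = 0.00794, unadjusted limma p of 0.00123, adjusted p = 0.480); both contrasts use the same 5 WDF males. The authors' deposited table for western diet males gave Igfbp2 a log2 fold change of 0.0598 (SE 0.137), with an unadjusted p of 0.0128 and an adjusted p of 0.206; how the fold changes of that table were estimated is not given in the sources used here, and their size is not compared with the ratio of the means. In a limma fit that weights each library by its spread, the adjusted p for WDF against WD males was 0.00401 for Igfbp2, 0.0443 for Igf2 and 0.0494 for Igfbp1, each the lowest value over 51 alternatives, of which the highest was 1.0 for all 3.

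In control diet males and in western diet females, the Igfbp2 values of the folic acid groups overlapped widely. CD males had 3627, 3831, 2141, 7075 and 4351 normalized counts, and the difference of CDF from CD males was 0.04 on the log2 scale (95% interval -0.85 to 0.93). WDF females had 5754, 2167, 5545, 5687 and 7599.6, and WD females 10909, 4023, 5461, 5337 and 2489. Their log2 difference was -0.02 (95% interval -0.90 to 0.87), with ranges that overlapped. The difference between the western diet and control diet effects of folic acid in males, an interaction, was 1.68 on the log2 scale (SE 0.617, unadjusted limma p of 0.0100, adjusted p = 0.347). The effect in western diet females minus that in western diet males was -1.74 (SE 0.617, unadjusted limma p of 0.00791, adjusted p = 0.580). With all 40 libraries both differences stayed the same, since neither added library belongs to these groups, and the p-values were 0.0990 and 0.0883. With library weights the adjusted p was 0.0277 and 0.0379, the lowest over 51 alternatives, of which the highest was 0.756 and 0.896. CDF females (5073, 3599.8, 3939 and 11459.7) and CD females (6371, 2743, 2222 and 3558) overlapped, with 1 CDF female, replicate 4, well above the rest. That library also had 24796.7 normalized counts of Sftpc and 658016 of Alb, and its summed red cell precursor markers, 2563330, were the highest of the 38 libraries. It had the lowest weight (0.101) in the fit with library weights, and the part of its tissue makeup in its Igfbp2 value was not tested.

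Igfbp1, the insulin-repressed binding protein, varied most among fetuses of western diet dams on the lower folic acid dose. WD males had 5813, 5190.4, 12596, 23318 and 56847 normalized counts, a 10.95-fold range, and WD females 29683, 16984, 7532, 22534 and 3827, a 7.76-fold range. WDF males had 33732, 23762, 28201, 25869.7 and 34131, a 1.44-fold range that lies inside that of WD males. In the other 5 groups the highest library was 1.56 to 2.29 times the lowest. The spread was not tested. The log2 difference of WDF from WD males was 1.06 (SE 0.449, exact permutation p = 0.143, unadjusted limma p of 0.0238, adjusted p = 0.521), with means of 29139 ± 4650.1 and 20753 ± 21455 (SD, n = 5 each). Single WD males moved it: the difference was 0.75 without replicate 1 (limma p of 0.109), 0.71 without replicate 2 (0.122) and 1.57 without replicate 5 (0.000454), which was highest in both Igfbp1 and Igfbp2 of its group. With the red cell precursor score or the hepatocyte score as a covariate, the log2 difference was 0.79 and 0.80. The unadjusted limma p was above 0.05 in both of these fits. It was also above 0.05 with all 40 libraries, and in a fit of only the groups compared.

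Over both sexes and both diets, the folic acid difference of the 19 libraries at the higher dose from the 19 at the lower was 0.60 on the log2 scale for Igfbp2 (SE 0.225, unadjusted limma p of 0.0119) and 0.53 for Igfbp1 (SE 0.231, p of 0.0269). The adjusted p was 1.0 for both. Leaving out WD male replicate 1, WD male replicate 2 or WD female replicate 5 took the unadjusted p of Igfbp1 above 0.05. The remaining proteins that carry the ligands varied little. Igfbp3, the main carrier in adult plasma, had group means from 604 ± 80.9 (WD females) to 714 ± 135 (WDF males). Igfbp4, an inhibitory binding protein cleaved by PAPP-A, had means from 7873 ± 615 (CDF females, n = 4) to 9152 ± 640 (CD females, n = 4). Igfals had means from 228 ± 54.0 (CDF females, n = 4) to 291 ± 50.6 (WDF females). None of these 3 reached an unadjusted p of 0.05 in any comparison.

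**Figure D3:**
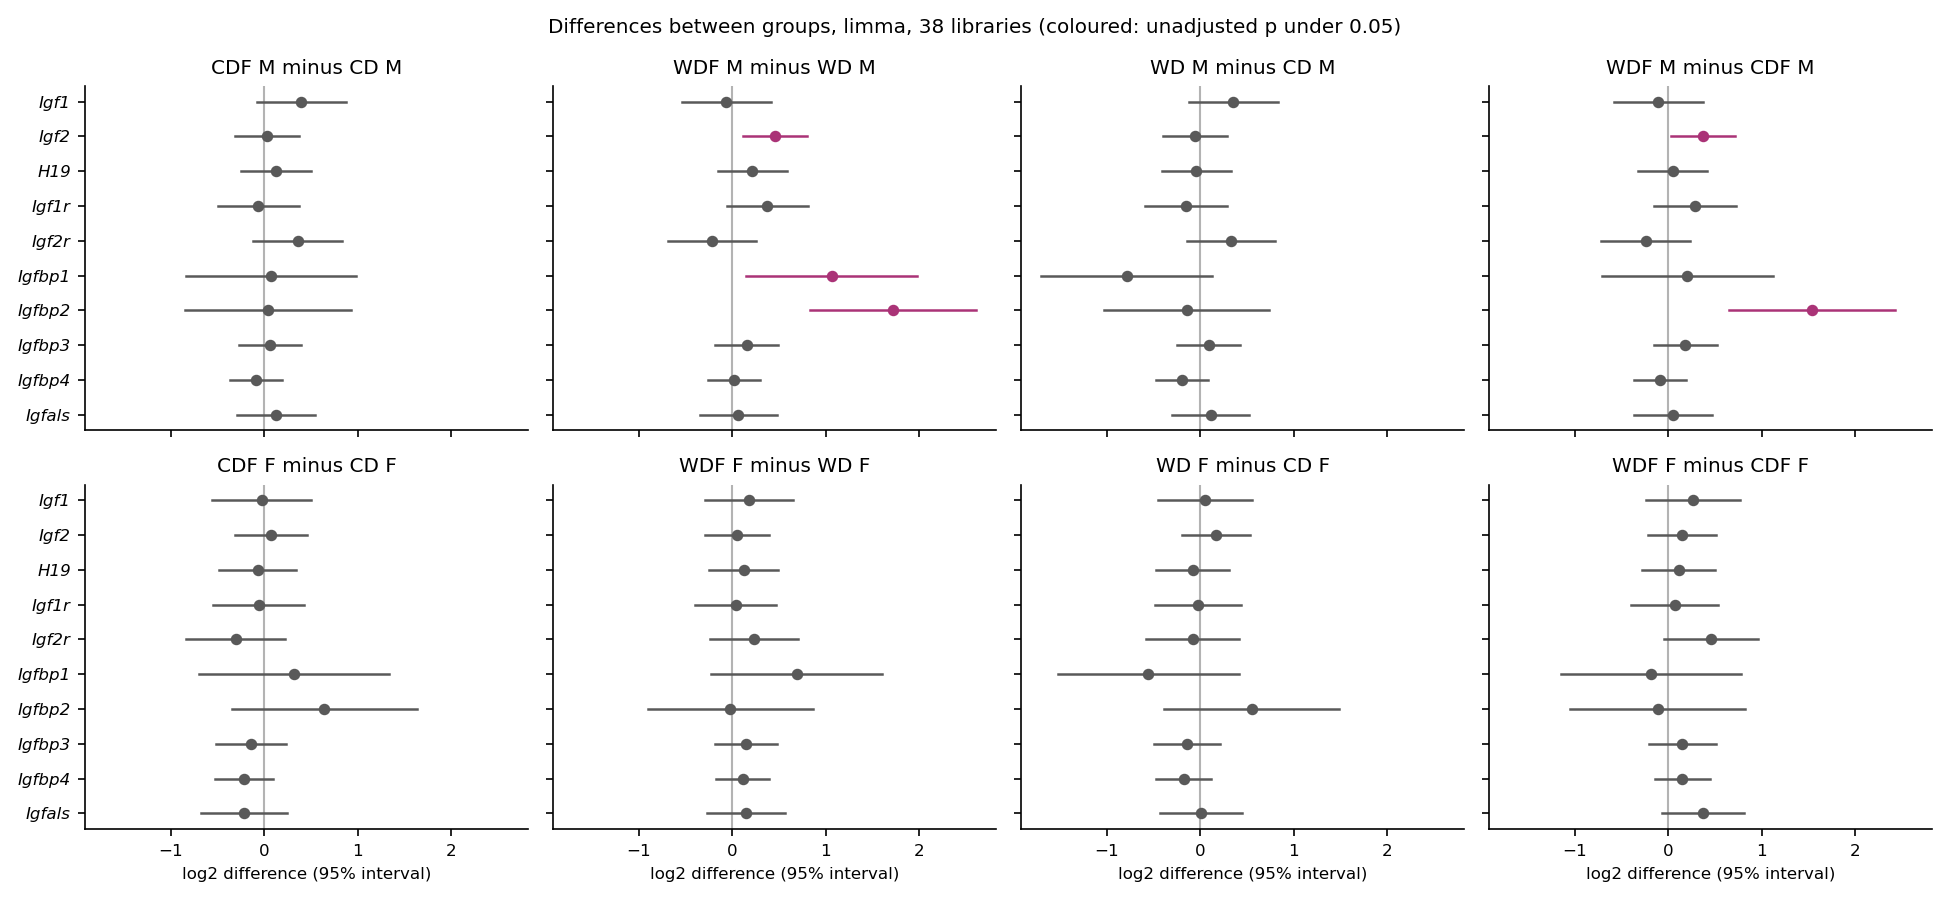
Log2 difference of each gene in the 8 comparisons between 2 groups, with 95% intervals from limma over 38 libraries; intervals in colour have an unadjusted p under 0.05. WDF against WD males has 3 such genes (Igf2, Igfbp1 and Igfbp2), WDF against CDF males has 2 (Igf2 and Igfbp2), and the other 6 comparisons have 0; none passed after adjustment.

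Counted over the 10 genes and 14 comparisons, 9 of 140 tests reached an unadjusted p of 0.05 in limma, and 0 reached an adjusted p of 0.05. In WDF against WD males 3 of 10 members passed the unadjusted threshold, all higher, where 8.81% of the 15377 genes tested did (4.77% higher). The ranges of 1 of the 10 did not overlap there, against 2.52% of all genes. The median log2 difference of the 10 was 0.19, with 8 higher and 2 lower, against 0.0079 for all genes. Such a lean was not particular to this comparison. Higher members were 9 of 10 in WDF against WD females (median 0.14), 8 in CDF against CD males (0.07) and 8 in WDF against CDF females (0.15). They were 7 in WDF against CDF males (0.12), 4 in WD against CD males (-0.05), 4 in WD against CD females (-0.05) and 3 in CDF against CD females (-0.06). The share of all genes that were higher is not given here. In WDF against CDF males 2 of 10 passed, where 6.9% of all genes did, and 1 of 10 did not overlap, against 2.08%. Pooled folic acid had 2 of 10 against 2.33% of all genes. The interaction in males had 1 of 10 against 12.3%, and the sex difference of the folic acid effect within the western diet 1 of 10 against 7.52%, shares close to or below the background.

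For the other comparisons the count of members was 0 of 10. All genes passed the unadjusted threshold at 6.65% in WD against CD males, 3.49% in CDF against CD males, 6.57% in WD against CD females and 8.14% in WDF against CDF females. The share was 7.78% in CDF against CD females, 1.44% in WDF against WD females, 7.5% for dietary fat pooled, 3.1% for sex and 12.9% for the interaction in females. Over all genes, the adjusted threshold was passed by 7 genes for dietary fat pooled (0.0455%), 9 for sex (0.0585%) and 0 in the other 12 comparisons. In the authors' deposited tables for the other 3 folic acid comparisons no member had an adjusted p under 0.05; those tables called 4 of 18559 genes in control diet females (0.0216%), 7 of 16012 in control diet males (0.0437%) and 0 of 18391 in western diet females.

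Of 45 further genes of the pathway, 44 were in the table and 42 were tested, and 0 passed an adjusted p of 0.05 in any of the 14 comparisons (limma). In WDF against WD males 3 of the 42 reached an unadjusted p of 0.05, 2 higher and 1 lower, a share no higher than the 8.81% of all genes that did so. The median log2 difference over the 42 was -0.07. Cebpb, a hepatocyte factor of the acute phase and of metabolic genes, averaged 547 ± 94.3 normalized counts in WDF males and 328 ± 92.7 in WD males (log2 difference 0.77, limma p of 0.0206, adjusted p = 0.514). Cebpb was past 0.05 in the authors' deposited table for western diet males (log2 fold change 0.595, adjusted p = 0.0400). Foxa2, a hepatocyte forkhead factor, averaged 309 ± 43.2 and 238 ± 36.5 (0.38, limma p of 0.0315). Lin28b, which blocks let-7 maturation and is known to favour Igf2 messenger translation, averaged 89.9 ± 19.5 and 128 ± 24.8 (-0.51, limma p of 0.0309). As for Igfbp2, the folic acid effect of Cebpb and Foxa2 was lower in western diet females than in males, by -1.18 (limma p of 0.0124) and -0.60 (0.0166) on the log2 scale, both with an adjusted p of 0.580. They were the only 2 of the 42 at an unadjusted p of 0.05, a share no higher than the 7.52% of all genes.

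In WDF against CDF males 2 of the 42 were higher and 0 lower at this threshold, a share no higher than the 6.9% of all genes. Stc1, an inhibitor of the binding protein protease PAPP-A, averaged 28.02 ± 6.89 and 18.03 ± 7.78 (log2 difference 0.68, limma p of 0.0481). Grb14, an adaptor that restrains the insulin receptor, averaged 320.5 ± 47.9 and 228 ± 54.7 (0.52, limma p of 0.0136). In CDF against CD males 0 were higher and 3 lower, where 3.49% of all genes passed: Igfbp5 (397 ± 81.6 against 717 ± 242), Stc1 and Htra1, a secreted protease. In WD against CD males the transcription factor Foxo1 was the only one, at 613 ± 82.8 against 763 ± 83.3 (-0.32, limma p of 0.0280), where 6.65% of all genes passed.

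Among females, WD against CD had 2 of the 42 higher (Stc1 and Foxo3) and 2 lower (Htra1 and Igfbp5, at 487 ± 219.6 against 921 ± 330.1), where 6.57% of all genes passed. In the same comparison all 6 mesothelium markers were lower (median log2 difference -0.92), 5 of them at an unadjusted p of 0.05, and 7 of 10 stellate and mesenchymal markers were lower (median -0.31). Summed lung epithelium markers were 1090 to 41140.5 normalized counts in CD females and 846 to 3677 in WD females. Sftpc was 30176 in CD female replicate 5. Neither the part of these cells nor that of this library in the lower Htra1 and Igfbp5 was tested. WDF against CDF had Irs1 (301 ± 58.2 against 217 ± 65.1) and Irs2 (789 ± 352 against 518 ± 351.5) higher, both docking proteins of the insulin and IGF1 receptors, and Igfbp6 lower, where 8.14% of all genes passed. CDF against CD and WDF against WD females had 0 of the 42.

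Lists of marker genes were read beside the male contrast, because in bulk liver fewer cells of a type and less RNA per cell cannot be told apart. In WDF against WD males 7 of 10 hepatocyte markers were higher, with a median log2 difference of 0.05, and summed hepatocyte markers were 2791700 to 3426920 and 2555200 to 2877320 normalized counts. Of 10 red cell precursor markers 8 were lower (median -0.19), with summed levels of 501848 to 994960 and 320618 to 1159110 that overlapped. All 6 megakaryocyte markers were higher, with a median of 0.58, and their summed level was 4819 to 6628 in WDF males and 3486 to 4515 in WD males, with no overlap. Of the 6, 4 had an unadjusted limma p under 0.05, where 8.81% of all genes did. Over the 38 libraries the megakaryocyte score had r = 0.52 and rho = 0.56 with Igf2 (adjusted permutation p = 0.0081 and 0.00707 over 110 pairs of a gene and a marker list, r = 0.37 within groups and 0.41 without the 2 farthest libraries). With Igfbp2 it had r = 0.46 and rho = 0.49 (adjusted permutation p = 0.0207 and 0.0225, r = 0.20 within groups and 0.50 without 2). Of the 10 members, Igf2r had the strongest correlation with the megakaryocyte score, and it was negative. It had r = -0.63 and rho = -0.75 (adjusted permutation p = 0.00088 and 0.00055, r = -0.73 within groups and -0.66 without 2). Igf2 also had r = -0.47 with the mesothelium score and 0.41 with the hepatocyte score. The adjusted permutation p was 0.0207 and 0.0491, but 0.131 for both by rho. All 6 skeletal muscle markers tested were also higher (median 0.67, summed 129 to 397 and 91.9 to 239.6). Of 10 lung epithelium markers 9 were higher (median 1.73), with summed levels of 884 to 9303 and 792 to 1141. Summed levels of the stellate and mesenchymal, sinusoidal endothelium, mesothelium, macrophage, bile duct, and intestine and stomach lists overlapped between WDF and WD males. No marker in these lists passed an adjusted p of 0.05, and the part of these cells in the results was not tested except as follows. Without WDF male replicate 2, the group's library with high Sftpc, the log2 difference was 1.77 for Igfbp2 and 0.50 for Igf2, as large as with it. With the hepatocyte score as a covariate these were 1.63 and 0.37, and with the red cell precursor score 1.46 and 0.51, each with an unadjusted limma p under 0.05.

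Across the 38 libraries the log2 values of some of the 10 genes were correlated with each other. Of 45 pairs, 19 had a Pearson correlation of log2 values with a two-sided permutation p under 0.05 after Benjamini-Hochberg adjustment, 18 positive and 1 negative. By Spearman's rho 11 pairs did, 10 of them among the 19. The negative pair, Igf1 and Igf1r (r = -0.45, rho = -0.39), had an adjusted permutation p of 0.0557 by rho, and r = -0.23 without the 2 farthest libraries. An r of 0.4 or more was held by 16 of the 45 pairs and by 16.3% of all pairs of genes tested. An r of 0.6 or more was held by 3 of the 45, a share no higher than the 6.83% of all pairs. These 3 pairs all include H19 and are given next. Their permutation p measures the distance from no correlation, not from this background. The share of all pairs past an adjusted permutation p of 0.05 is not given here. Igf2 and H19 had r = 0.69 and rho = 0.54 (permutation p = 1e-05, the smallest that 100000 resamples can give, and 0.00058; adjusted 0.00015 and 0.00799). The correlation was 0.72 after group means were removed and 0.53 without the 2 libraries farthest from the median of Igf2. H19 also went with Igfals (r = 0.72, rho = 0.55, permutation p = 1e-05 and 0.0003, adjusted 0.00015 and 0.00675, r = 0.54 without 2 libraries). It went with Igfbp3 as well (r = 0.67, rho = 0.69, permutation p = 1e-05 for both, adjusted 0.00015 and 0.00045, r = 0.50 without 2). H19 had r = 0.73 and rho = 0.69 with the hepatocyte marker score (adjusted permutation p = 0.00088 and 0.00055 over the 110 pairs, r = 0.64 without 2 libraries). With the sinusoidal endothelium score H19 had r = 0.69 and rho = 0.61 (adjusted permutation p = 0.00088 and 0.00275, r = 0.59 without 2). Its r was 0.43 with the stellate and mesenchymal score and -0.52 with the skeletal muscle score (adjusted permutation p = 0.0339 and 0.0099, but 0.0521 and 0.169 by rho). Igfbp1 and Igfbp2 had r = 0.49 and rho = 0.48 (permutation p = 0.00195 and 0.00283, adjusted 0.00877 and 0.0212), 0.50 within groups and 0.34 without the 2 farthest libraries. Igf2 and Igfbp2, both with the highest group mean in WDF males, had r = 0.27 and rho = 0.31 over the 38 libraries. Their r was -0.08 within groups and 0.50 without the 2 libraries farthest from the median of Igf2, so it depended on single libraries. The permutations treat the 38 fetuses as independent, and the libraries share tissue makeup.

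**Figure D4:**
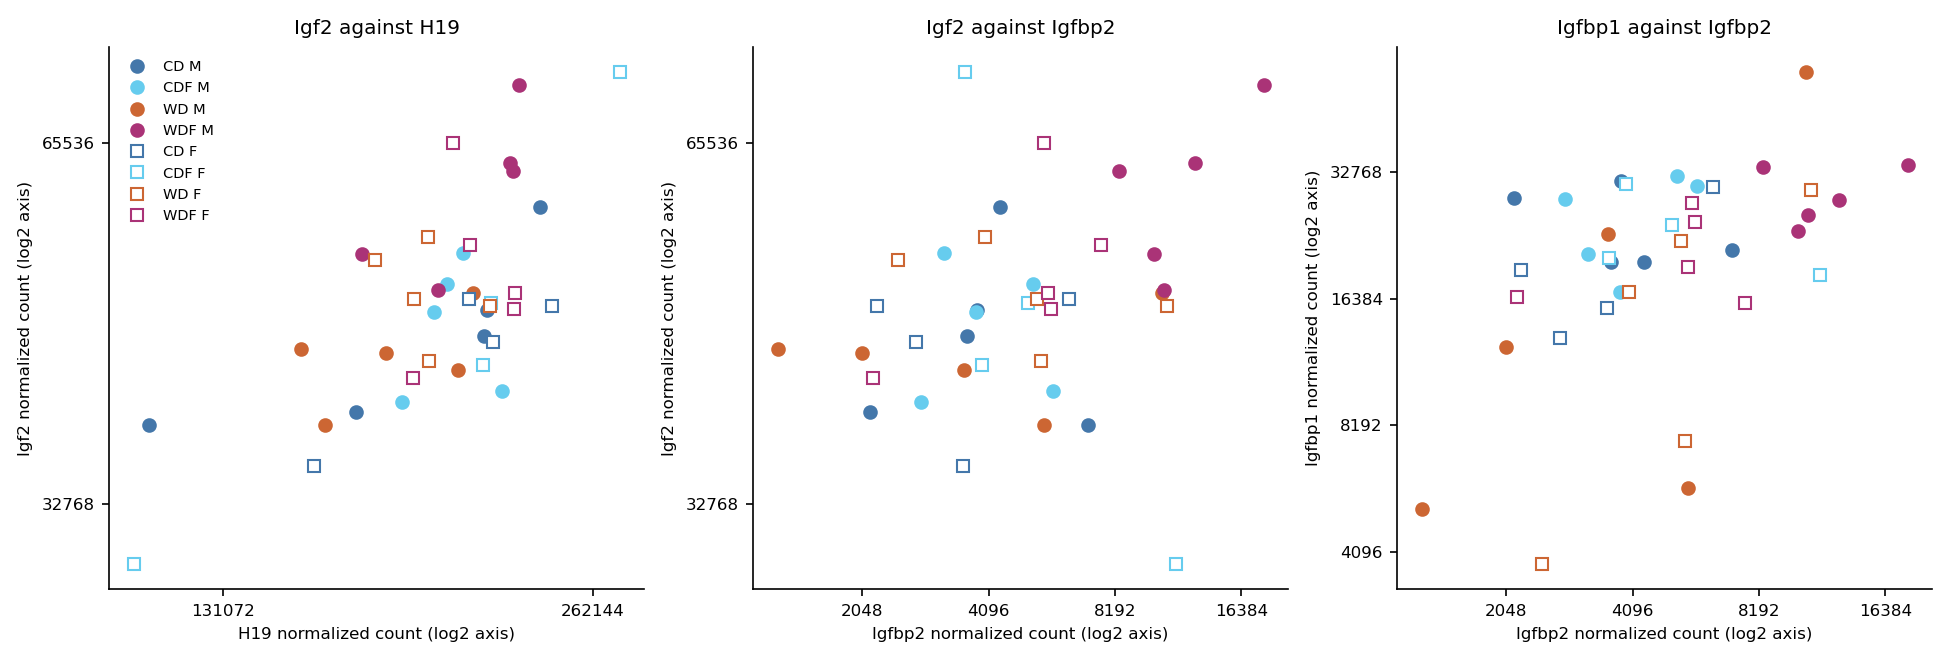
Normalized counts of Igf2 against H19, Igf2 against Igfbp2 and Igfbp1 against Igfbp2 in the 38 libraries, on log2 axes (M filled circles, F open squares, colours for maternal diet). Igf2 and H19 lie along a common trend (r = 0.69), while in the plots with Igfbp2 the WDF males lie to the right, at 8359 to 18522.

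The genes with the pattern most like each of the 3 members were taken as those with the highest Pearson r over the 38 libraries among all genes tested. For Igfbp2 they were Fgl1, a protein secreted by hepatocytes (r = 0.85), the nuclear receptor gene Nr1i3 (0.79) and Serpina3m (0.78). For Igf2 they were Lrp1, an endocytic receptor (0.84), Sod3, the extracellular superoxide dismutase (0.82), and Abcc6 (0.77). For Igfbp1 they were the nuclear receptor gene Rora (0.80), G6pc, the glucose-6-phosphatase of glucose release (0.79), and Nit1 (0.78). After group means were removed these 9 correlations were 0.75 or more, given as 0.79, 0.84, 0.81, 0.83, 0.77, 0.76, 0.77, 0.79 and 0.78 in the same order.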

How the data were processed

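Per the labels' protocols, 1 microgram of RNA per mouse was made into directional, poly(A)-selected libraries and read as paired ends of 43 nt. Per the submitters' processing notes, Trimmomatic 0.39, STAR 2.7.3a, Salmon 1.3.0 and DESeq2 1.24 were used on the mouse build mm10; how reads were counted, and on which strand, is not stated. The deposited gene table is a signal scale: read counts that the authors had already normalized, checked by recomputing median-ratio factors, which were equal in all 40 libraries. It cannot give counting error, so precision rests on the spread between libraries. Per gene, 4 further tables deposited by the authors give their log2 fold change for folic acid, its SE, the p-value and its adjusted form.

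With limma 3.58.1 (R 4.3.3), log2 of the value plus a pseudocount of 1 was modelled (1 mean per group, 38 libraries, mean-variance trend, robust moderation). Genes had to reach 10 in 5 or more libraries (15377 of 20593), with Benjamini-Hochberg adjustment over all of them in each of 14 comparisons. The pseudocount makes log2 differences of weakly expressed genes too small. The fit was tested on simulated data for WDF against WD males. It recovered 40.3% of 1.5-fold, 74.6% of 2-fold and 100% of 4-fold changes, with 7 false among 150 calls. Changes of 1.5-fold were therefore often missed. Per-length levels use merged exons of GENCODE M21, in which 20563 gene IDs were found without their version number. Column names match sample titles, apart from 1 CDF column without a sex letter, which fits only the title left over after the other matches. No 2 libraries correlated above 0.982, and all were kept as separate samples.

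The 10 members and the lists of pathway and marker genes were chosen with earlier results of these data known. By the rule for named genes, a log2 difference with SE and p is given where the unadjusted p was under 0.05; 95% intervals are added for members that are compared across groups. For the 5 such differences between 2 groups, a two-sided exact permutation test over libraries was added after seeing the data. Correlations between members, and with marker scores (the mean of standardised log2 values of a list), and their permutation p-values were computed with Python 3.11.15, on log2(value + 1). Alternatives were other scalings, filters, pseudocounts, sets of libraries, library weights, marker scores as covariates, a replicate block and leaving out each library.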

Additional observations from a re-analysis of the deposited data

Results flagged for a closer look

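Of 80 combinations of a gene and a group, 2 held a library far from the other libraries of its group, where chance gives about 1 in 20. Igf1r in CD males was 560 normalized counts in replicate 4, against 309 to 337 in the other 4 libraries. Igfals in CD females was 176 in replicate 5, against 289 to 303 in the other 3. That library had 30176 normalized counts of Sftpc, the highest of the 38 libraries. Its Alb, at 892731, was the lowest of the CD females kept. The part of its tissue makeup in its Igfals value was not tested.

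The folic acid difference of Igfbp2 was compared between groups in 2 tests that reached an unadjusted p of 0.05. The folic acid difference in western diet males exceeded that in control diet males by 1.68 on the log2 scale (unadjusted limma p of 0.0100, adjusted p = 0.347), and that in western diet females minus that in western diet males was -1.74 (unadjusted limma p of 0.00791, adjusted p = 0.580). Neither passed after adjustment over all genes in the unweighted limma fit; with library weights the adjusted p was 0.0277 and 0.0379, the lowest over 51 alternatives, of which the highest was 0.756 and 0.896.

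The libraries set aside for their low albumin and high surfactant genes held both receptors at levels above the highest of the 38 others. Igf1r was 1134 in CD female replicate 4 and 1194 in CDF female replicate 5, against at most 560. Igf2r was 6171 and 5736, against at most 3195.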

How the results depend on the processing

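No result reversed under the alternatives. With all genes counted, library weights gave the largest shifts in genes past an adjusted p of 0.05: 145 in WD against CD males, 241 in WDF against CDF males, 621 in WDF against WD males, 486 for dietary fat pooled, 397 for the folic acid by fat interaction in males and 579 for the folic acid effect in the western diet by sex, against 0, 0, 0, 7, 0 and 0. Low weights went to CDF female replicate 4 (0.101), CD male replicate 4 (0.180) and WDF female replicate 3 (0.379). The hepatocyte covariate gave 7 in WDF against WD males, and fitting only the groups compared gave 1 in WD against CD females. Fat pooled had 11 with a pseudocount of 5, 3 with all 40 libraries and 11 with 36. Leaving out each library in turn gave 0 to 1 (WD against CD males), 0 to 8 (WDF against CDF males, 8 without CDF male replicate 2), 0 to 2 (WDF against WD males), 0 to 1 (WD against CD females, WDF against CDF females and CDF against CD females), 3 to 53 (fat pooled, 53 without CDF male replicate 2) and 7 to 10 (sex). The cause of these shifts was not tested.

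The Igfbp2 differences of WDF males from WD males (1.36 to 2.13) and from CDF males (1.37 to 1.68) had an unadjusted p under 0.05 under all 51 alternatives. The Igf2 difference of WDF from WD males (0.37 to 0.53) did so under 50 and lost it with all 40 libraries. The 6 other differences given with a p lost it with all 40 libraries as well, and 3 of them under other alternatives too. Between diets within a sex, samples with the same replicate number did not deviate together (correlations -0.54 to 0.27), so the numbers do not pair them there. Whether a male and a female of the same diet and number deviate together was not checked. With a replicate block the Igfbp2 difference of WDF from WD males stayed 1.72 (limma p of 0.000162), and the block changed no call. Depth in reads is unknown, because the values are normalized.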
